A study of Mus musculus with 4 samples.

Results

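The 10 genes described here belong to the unfolded protein response of the endoplasmic reticulum (ER): the sensors Ern1 and Atf6, the transcription factor Xbp1, the chaperones and folding enzymes Hspa5, Hsp90b1, Dnajb9, Sdf2l1 and Pdia4, and the degradation factors Herpud1 and Edem1. They were chosen by gene symbol and were read by 16 features (array spots) of the 33709 assigned to genes. All 10 genes had at least 1 feature, and 15 features of 9 genes lay outside stretches of the arrays taken as misread. Only the Hspa5 feature lay inside one.

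The ER folds membrane and secreted proteins. When unfolded proteins build up there, they engage ER membrane sensors: IRE1 (encoded by Ern1), which splices the Xbp1 transcript into the form that encodes an active transcription factor, ATF6, which is cut in the Golgi to release a transcription factor, and PERK, which slows protein synthesis. The targets of these arms are chaperones, disulfide isomerases and factors that return misfolded proteins to the cytosol for destruction. Activated T cells enlarge their ER as they begin to secrete cytokines, and XBP1 is best known in lymphocytes for its part in the secretory ER of plasma cells.

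The samples were CD4+CD25- T lymphocytes purified from the spleen of C57BL/6 mice and stimulated for 12 h with antibodies against CD3 and CD28. One group came from db/db mice, which lack a working long form of the leptin receptor and become obese (the sample labels call the phenotype leptin-deficient and the series title leptin-receptor-deficient), and the other from db/+ mice, which carry 1 mutant and 1 wild-type allele and were the wild type of the study. Each group had 2 pools of 3 mice, each read on its own one-colour array. The pools came from 2 independent experiments, and the labels do not say which pool came from which. The comparison asks how gene expression in stimulated effector T cells differs between the genotypes. The db/db cells came from mice that become obese, so loss of the receptor in T cells and obesity cannot be told apart.

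Median raw intensity per array was 102 and 176 in db/db pools 1 and 2, against 254 and 151 in db/+ pools 1 and 2, and none of the 16 features reached the scanner maximum of 65535 in any pool. Values below are log2 intensities after normexp background correction and quantile normalization, and each difference is db/db minus db/+. Features of a gene can differ in brightness, so levels are compared between pools of 1 feature only. Of 33709 gene features, 336 differed (limma, adjusted p below 0.05), or 0.997%, with 195 higher and 141 lower in db/db. With misread stretches left out, 2089 of 25467 differed, or 8.2%, with 1705 higher (6.69%) and 384 lower (1.51%). The 2 fits shared 176 called features. On the brightest kept feature of each of 16145 genes, the fit over all gene features called 109 higher and 3 lower. Other normalizations of the kept features gave splits of 1101 higher and 826 lower (quantile normalization of the kept features alone), 1267 and 655 (median scaling) and 1146 and 551 (cyclic loess). Over all features the splits were 126 higher and 270 lower after median scaling and 58 and 91 after cyclic loess. Kept features above the array's median level differed by a median of 0.19 in the reported normalization, and by -0.02, 0.04 and 0.04 under those 3 normalizations of the kept features, so for bright features differences are best read against these medians. Without any 1 of the 4 arrays, no feature (0) was called in either fit.

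Lepr, the gene mutated in db/db mice, read 6.42 and 6.23 in db/db pools and 6.30 and 6.25 in db/+ pools, below the median of 7.55 over gene features in every pool, and so does not check the labels. Y-linked Eif2s3y read 13.95 and 13.77 in db/db pools and 5.97 and 6.68 in db/+ pools, whereas Xist, the RNA that silences an X chromosome in females, read 10.06 and 6.60 in db/db pools and 14.33 and 13.88 in db/+ pools. The labels do not state the sex of the mice, and genotype and these sex-linked differences cannot be told apart in any comparison below. In bulk samples such as these, fewer cells of a type and less RNA per cell cannot be told apart either.

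In db/db cells the transcription factor Xbp1 and the degradation factor Edem1 were higher, by about 1 log2 unit, and the co-chaperone Dnajb9 was lower on 1 of its 3 features, the last 2 genes only with misread stretches left out. The sensor Atf6 (-0.68 on its brightest feature), Sdf2l1 (0.83) and Pdia4 (0.88) differed by similar amounts and were not called in either fit. Under the 3 other normalizations of the kept features both Atf6 features were called lower, and Sdf2l1 and Pdia4 were not called. Over all gene features 1 of the 16 member features was called, the Xbp1 feature, which was higher, beside 0.578% of all gene features called higher. With misread stretches left out 4 of 15 were called: Xbp1 and 2 features of Edem1 higher and 1 feature of Dnajb9 lower, against 8.2% of all kept features. On the brightest kept feature of each gene 2 of 9 were called, Xbp1 and Edem1, both higher. On such features 9.07% of all genes were called, 7.49% higher. At an unadjusted p below 0.05, 10 of 16 features passed in the first fit, 5 in each direction, beside 19.5% of all gene features. The pools of the groups did not overlap for 14 of the 15 kept features, 7 higher and 7 lower in db/db, where 55.1% of all kept gene features showed such a separation (35.1% higher and 19.9% lower). On the brightest kept feature of each of 9 genes the median difference was 0.35, 5 positive and 4 negative, beside 0.05 over 16145 genes. The median size of the difference was 0.68 beside 0.18. Those 9 features were brighter than the median gene feature in every pool, and kept features above that level differed by a median of 0.19. The sizes and the separation of pools were not set against features of similar brightness. Over all 15 kept features the median was -0.16, beside 0.04 over all kept gene features, and over the means of all kept features of each gene it was 0.09.

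**Figure D1:**
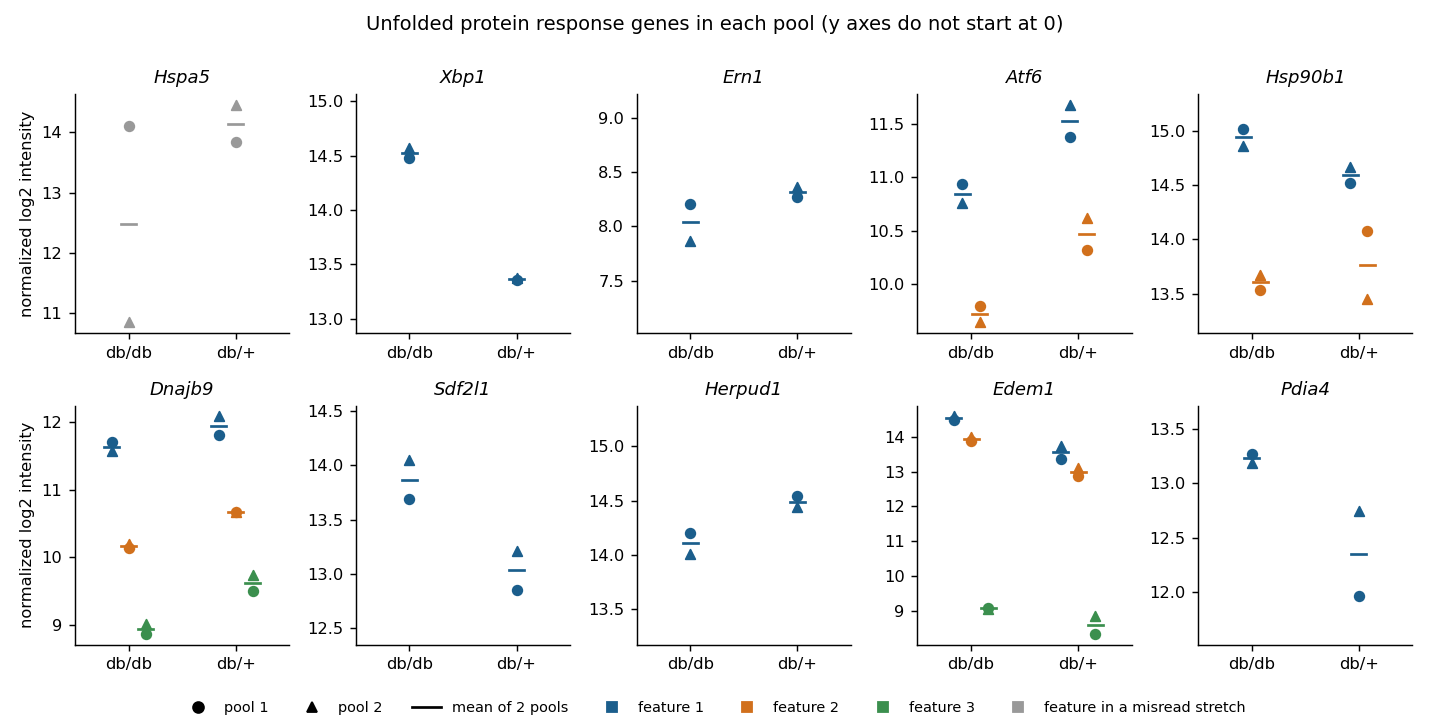
Normalized log2 intensity (y axis, its own range for each gene) of the 10 genes in db/db pools (left) and db/+ pools (right), with a circle for pool 1, a triangle for pool 2, a bar for their mean and a colour for each feature of a gene, feature 1 being the brightest. Xbp1 sat at 14.48 and 14.57 in db/db and 13.36 and 13.37 in db/+, while the Hspa5 feature, in grey, read 10.85 in db/db pool 2 alone.

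Among the sensors, Ern1 encodes IRE1α, the kinase and endoribonuclease that splices Xbp1. Its single feature read 8.21 and 7.87 in db/db pools, against 8.27 and 8.36 in db/+ pools. Both db/db pools lay below both db/+ pools, with a difference of -0.28 that was not called (95% interval -0.67 to 0.12 with misread stretches left out; adjusted p = 0.449 over all gene features and 0.345 with the stretches left out). These levels were near the median of 7.55 over gene features.

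Atf6, the Golgi-processed sensor, had 2 features that moved together. The brighter read 10.94 and 10.76 in db/db pools, against 11.38 and 11.68 in db/+ pools, a difference of -0.68 (interval -1.07 to -0.29). The second read 9.79 and 9.64 in db/db pools, against 10.32 and 10.61 in db/+ pools, a difference of -0.75 (interval -1.13 to -0.37). On both features the db/db pools were the lower ones without overlap, and limma's adjusted p missed the threshold, at 0.149 and 0.0666 for the brighter feature and 0.126 and 0.0524 for the second in the fits with and without misread stretches. Under each of the 3 other normalizations of the kept features both Atf6 features were called lower in db/db, with differences of -0.96, -0.93 and -0.91 on the brighter one (adjusted p = 0.0251, 0.0164 and 0.0301). The mean of its 2 features was also called (difference -0.72, adjusted p = 0.0488).

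Xbp1, the transcription factor downstream of IRE1, was read by 1 feature. Its raw intensities were 15167 and 29895 in db/db pools, against 14789 and 10111 in db/+ pools, on arrays whose overall brightness differed as given above. After normalization it read 14.48 and 14.57 in db/db pools, against 13.36 and 13.37 in db/+ pools. The db/db pools were therefore both higher, and the pools of a group differed from each other by 0.09 in db/db and 0.01 in db/+. The means were 14.53 ± 0.07 in db/db and 13.36 ± 0.01 in db/+ (SD, n = 2), a 2.24-fold rise (difference 1.16, interval 0.90 to 1.42; limma adjusted p = 0.048 and 0.0156). With misread stretches left out the call stood under all 4 normalizations, with differences of 1.06 to 1.16 (adjusted p = 0.00173 to 0.0195). Over all gene features it was lost under median scaling (adjusted p = 0.141), cyclic loess (0.0576) and with dim features left out (0.0713). No spot of the scan line that holds the Xbp1 feature departed by more than 2 log2 units from the other arrays in any pool. The annotation gives no probe sequence, so the feature could not be assigned to the spliced or the unspliced transcript, and the splicing by IRE1 was not measured.

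Among the degradation factors, Edem1, a mannosidase-like protein that hands misfolded glycoproteins to the degradation pathway, had 3 features. The brightest read 14.48 and 14.59 in db/db pools, against 13.37 and 13.73 in db/+ pools, a 1.98-fold higher level (difference 0.98, adjusted p = 0.101 and 0.0371). The second read 13.88 and 13.98 in db/db pools, against 12.88 and 13.10 in db/+ pools, a 1.92-fold higher level (difference 0.94, adjusted p = 0.0784 and 0.0283). Both rose with misread stretches left out, and both were called higher under the 3 other normalizations of the kept features as well. The dimmest of the 3, at 9.08 and 9.05 in db/db pools against 8.34 and 8.84 in db/+ pools, had the same direction without a call (difference 0.48, adjusted p = 0.345 and 0.218).

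Herpud1, an ER membrane protein that organizes the degradation complex, went the other way on its single feature. It read 14.21 and 14.01 in db/db pools, against 14.54 and 14.44 in db/+ pools. The groups did not overlap, and the difference of -0.38 (interval -0.69 to -0.07) was not called (adjusted p = 0.223 and 0.135).

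Among the chaperones, Hspa5 encodes BiP, the main Hsp70 chaperone of the ER lumen, which also holds the sensors inactive. Its only feature read 14.10 and 10.85 in db/db pools, against 13.83 and 14.45 in db/+ pools. Only db/db pool 2 stood apart, and db/db pool 1 lay between the db/+ pools. On the scan line of 266 spots that holds this feature, 58 spots (21.8%) departed by more than 2 log2 units in db/db pool 2 and none did in the other 3 pools. Of the 14 spots within 10 positions of it 1 did. The difference was -1.67 (interval -5.38 to 2.04, adjusted p = 0.548) with db/db pool 2 and -0.04 without it, and the level of Hspa5 in db/db cells therefore rests on 1 pool.

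**Figure D2:**
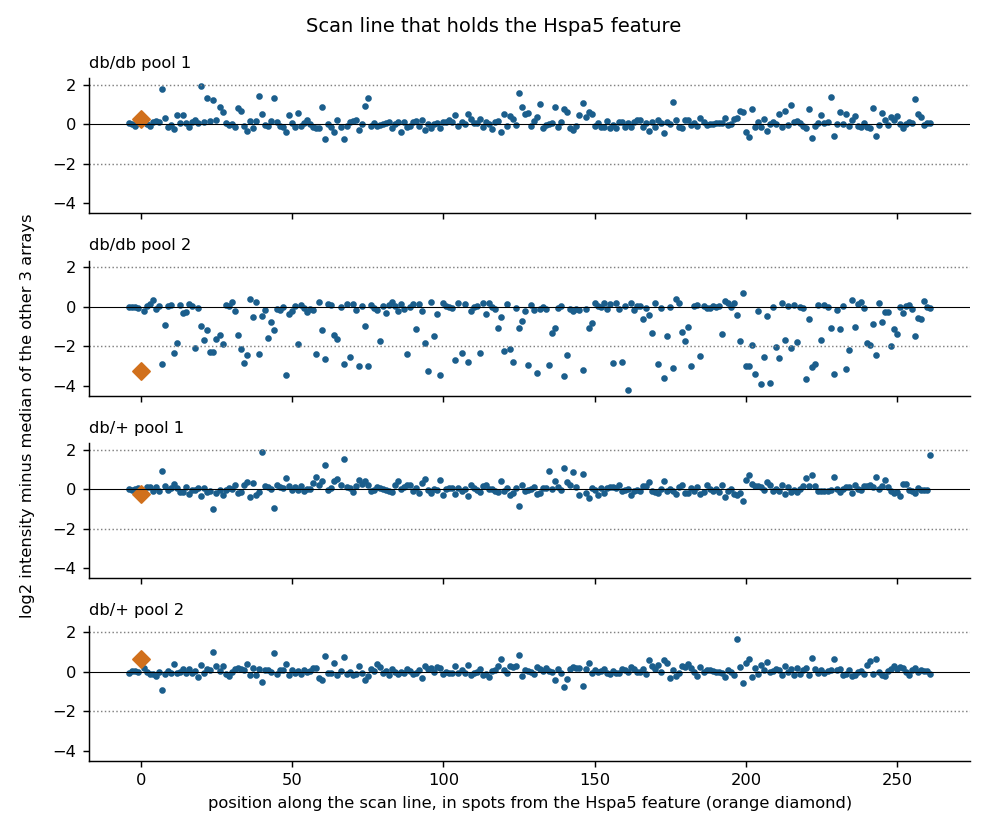
Log2 intensity of each spot minus the median of the other 3 arrays (y axis) along the scan line that holds the Hspa5 feature (x axis, spots from that feature), in 1 panel per pool, with dotted lines at 2 and -2. In db/db pool 2, 58 of the 266 spots lay beyond the dotted lines, with the Hspa5 feature (orange diamond) at -3.25, and in the other 3 panels none did.

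Hsp90b1, the ER form of Hsp90 (GRP94), had 2 features that disagreed in sign. The brighter read 15.02 and 14.86 in db/db pools, against 14.52 and 14.67 in db/+ pools, with the db/db pools above (difference 0.35, interval 0.04 to 0.65, adjusted p = 0.248 and 0.159). The second read 13.54 and 13.67 in db/db pools, against 14.07 and 13.45 in db/+ pools, which overlapped (difference -0.16, adjusted p = 0.779 and 0.746).

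Dnajb9 (ERdj4), an Hsp40 co-chaperone of BiP that acts on IRE1 and in degradation, had 3 features with differences of the same sign. The brightest read 11.70 and 11.57 in db/db pools, against 11.80 and 12.08 in db/+ pools (difference -0.31, adjusted p = 0.377 and 0.270). The second read 10.13 and 10.19 in db/db pools, against 10.67 and 10.67 in db/+ pools, a 1.42-fold lower level (difference -0.50, adjusted p = 0.101 and 0.0499). The dimmest read 8.88 and 9.02 in db/db pools, against 9.50 and 9.74 in db/+ pools (difference -0.67, adjusted p = 0.123 and 0.0527). The groups did not overlap on any of them, and the second feature fell, just inside the threshold, with misread stretches left out. Under quantile normalization of the kept features alone and under cyclic loess, the second and the dimmest feature were both called lower (adjusted p = 0.0289 and 0.0218, and 0.0347 and 0.0262), and under median scaling only the dimmest was (0.0269, with 0.0783 for the second).

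Sdf2l1, a partner of BiP and of ER Hsp40 proteins, read 13.69 and 14.05 in db/db pools, against 12.86 and 13.22 in db/+ pools. Pdia4 (ERp72), a protein disulfide isomerase, read 13.27 and 13.19 in db/db pools, against 11.96 and 12.75 in db/+ pools. For both genes the db/db pools were above the db/+ pools, at differences of 0.83 (interval 0.32 to 1.34) and 0.88 (interval 0.14 to 1.61). Neither was called (adjusted p = 0.171 and 0.0750 for Sdf2l1, 0.272 and 0.144 for Pdia4), and the db/+ pools differed from each other by 0.36 and 0.79.

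**Figure D3:**
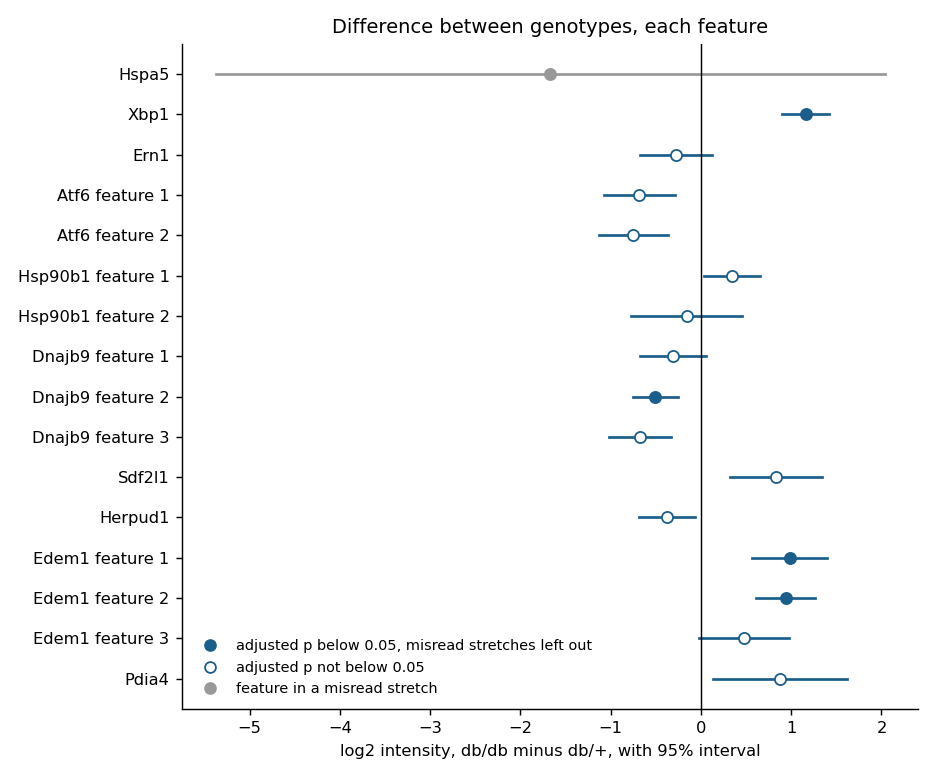
Difference in log2 intensity, db/db minus db/+ (x axis), of each of the 16 features with its 95% interval (horizontal lines), from the fit with misread stretches left out except for Hspa5 (grey), which comes from the fit over all gene features. Filled blue points, called at an adjusted p below 0.05, are Xbp1 at 1.16, Edem1 at 0.98 and 0.94 and Dnajb9 feature 2 at -0.50.

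**Figure D4:**
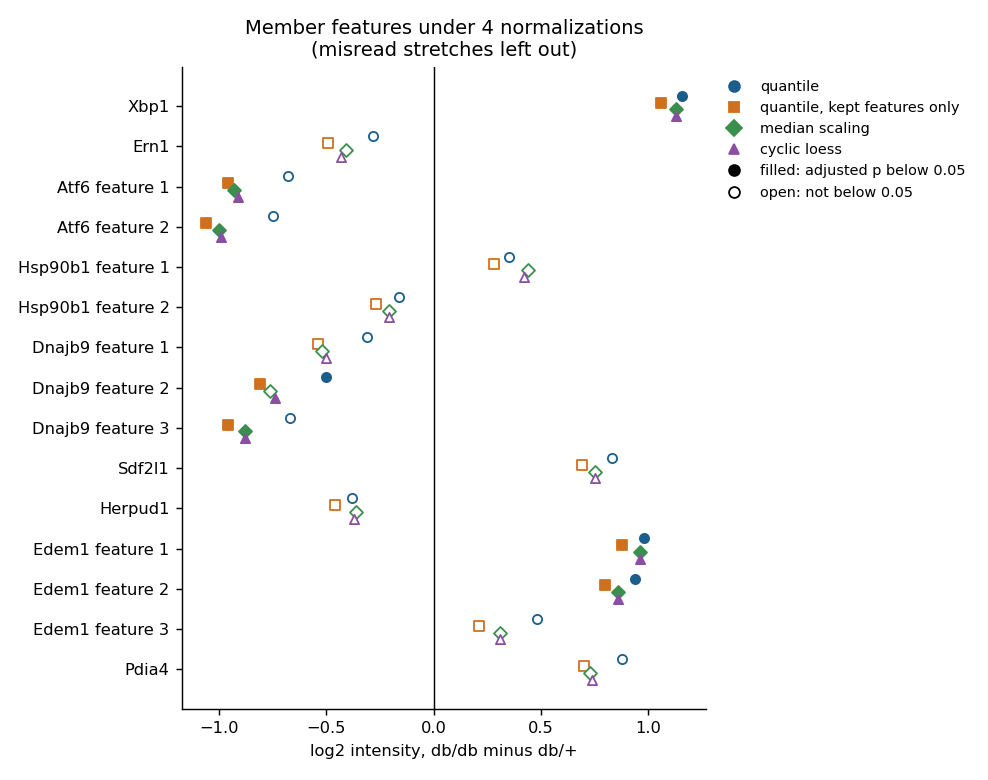
Difference in log2 intensity, db/db minus db/+ (x axis), of the 15 features outside misread stretches under 4 normalizations (marker shapes), filled where the adjusted p was below 0.05. Xbp1 and Edem1 features 1 and 2 are filled under all 4, and both Atf6 features are open under the reported quantile normalization and filled under the other 3.

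Some of the members are known to respond through short promoter elements. These were looked for in the RefSeq promoter windows (GRCm38.p6, 250 bases before to 50 after a start site) of the 9 members with an entry, all but Atf6. The ER stress response element, ERSE, has the letters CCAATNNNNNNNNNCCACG, where the first 5 letters are the site of NF-Y and the last 5 that of ATF6 or XBP1. ERSE-II has the letters ATTGGNCCACG, and the core of the unfolded protein response element the letters TGACGTGG. Both strands were searched, and ERSE and ERSE-II each contain the shorter words CCAAT (or its reverse complement) and CCACG. Of 32851 windows of all genes, 0.119% held an ERSE, 0.0365% an ERSE-II and 0.676% the TGACGTGG core. Among the members 2 held an ERSE, Hspa5 and Hsp90b1, 1 held an ERSE-II, Herpud1, and none held the TGACGTGG core. Hsp90b1 and Herpud1 were called in neither fit, and Hspa5 was not called over all gene features and could not be tested with misread stretches left out. The matches are shown here because they are the sites the ER stress factors are known for, each with 5 flanking bases on both sides, written along the gene and with the fixed letters of the match in capitals. The second Hsp90b1 match lies on the opposite strand.
Hspa5, bases -65 to -47 from the start site, with flanks at chr2:34772020-34772048, plus strand: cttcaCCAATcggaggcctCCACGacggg
Hsp90b1, bases -212 to -194, with flanks at chr10:86705633-86705661, minus strand: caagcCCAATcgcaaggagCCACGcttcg
Hsp90b1, bases -107 to -89, with flanks at chr10:86705528-86705556, minus strand: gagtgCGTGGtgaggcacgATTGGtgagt
Herpud1, bases -52 to -42, with flanks at chr8:94386372-94386392, plus strand: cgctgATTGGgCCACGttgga

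The genes that rose, Xbp1 and Edem1, held none of these 3 elements in their windows, and no ERSE with 1 base changed. An ERSE with at most 1 changed base was in 1.5% of all windows and in 4 members, Hspa5, Hsp90b1, Herpud1 and Pdia4. The 250 bases upstream of the start sites of Xbp1 and Edem1 are shown because these are the members called higher, with CCAAT and CCACG on either strand in capitals. The Xbp1 stretch held neither word, while the Edem1 stretch held 1 CCAAT and 2 CCACG. For comparison 37.4% of all windows held CCAAT and 32.8% CCACG. No match in a window says only that these letters are not there.
Xbp1, chr11:5520391-5520640, plus strand: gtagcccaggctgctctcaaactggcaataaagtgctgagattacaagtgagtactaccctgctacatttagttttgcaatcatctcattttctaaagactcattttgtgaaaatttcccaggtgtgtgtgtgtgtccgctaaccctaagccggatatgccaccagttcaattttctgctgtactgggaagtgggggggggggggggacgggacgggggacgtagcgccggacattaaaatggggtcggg
Edem1, chr6:108828391-108828640, plus strand: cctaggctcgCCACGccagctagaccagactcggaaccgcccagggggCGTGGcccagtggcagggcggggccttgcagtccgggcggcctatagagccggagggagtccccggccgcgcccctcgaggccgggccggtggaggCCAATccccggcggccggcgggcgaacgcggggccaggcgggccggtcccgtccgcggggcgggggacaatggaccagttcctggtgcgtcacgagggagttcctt

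Other genes of the ER were read from 5 lists (127 genes, 107 with a kept feature), each gene on its brightest kept feature. On such features 9.07% of all genes were called with misread stretches left out. In the fit over all gene features none of the 107 was called, beside 0.694% of 16145 genes. With misread stretches left out 8 rose and none fell, or a share close to the 7.49% of all genes called higher. Under each of the 3 other normalizations of the kept features 3 rose. Quantile normalization of the kept features alone, median scaling and cyclic loess called 1101, 1267 and 1146 of 25467 kept gene features higher. The median difference over the 107 genes was 0.09, and 0.00, -0.01 and -0.05 after median scaling, cyclic loess and quantile normalization of the kept features alone.

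Among 13 stress sensors and their processing factors 1 rose, Eif2ak3, which encodes PERK. It read 12.26 and 12.16 in db/db pools, against 11.32 and 11.28 in db/+ pools, a 1.88-fold higher level on 1 of its 2 kept features (adjusted p = 0.0626 and 0.0216). Creb3, another membrane-bound transcription factor, differed by 0.55 (adjusted p = 0.113 and 0.0530), and Nfya, a subunit of the CCAAT-binding factor NF-Y, by 0.30 (0.217 and 0.148).

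Among 24 folding enzymes and chaperones 2 rose. Ppib, the ER cyclophilin, was 1.72-fold higher on 1 of 2 features (adjusted p = 0.0788 and 0.0304), and Dnajc3 (p58IPK), a BiP co-chaperone that restrains PERK, differed by 0.58, with 1 of its 3 features called (0.0984 and 0.0435). P4hb, a protein disulfide isomerase, differed by -0.31 (0.188 and 0.130). Among 19 genes of ER-associated degradation 1 rose, Edem2, a mannosidase of the same family as Edem1. It read 10.88 and 11.15 in db/db pools, against 9.95 and 10.27 in db/+ pools, a 1.87-fold higher level (adjusted p = 0.122 and 0.0480). Rnf5, a ubiquitin ligase, and Herpud2, a relative of Herpud1, differed by 0.38 and -0.28 and were not called (adjusted p = 0.259 and 0.287 with the stretches left out).

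Among 28 genes of the translocon, signal recognition and glycosylation 2 rose: Srp54a, a subunit of the signal recognition particle with near-identical copies in the mouse genome that the feature may also read, 1.94-fold (adjusted p = 0.0617 and 0.0213), and Sec11c, a signal peptidase subunit, 1.46-fold (0.0978 and 0.0449). Ssr3, of the translocon-associated complex, differed by 0.42 (0.195 and 0.112). Among 23 genes of transport to and from the Golgi 2 rose, the vesicle coat gene Sec24a, 1.65-fold (0.0911 and 0.0361), and Kdelr1, the receptor that returns ER residents, 1.45-fold (0.101 and 0.0486). Sec24d, a second coat gene, differed by 0.81 (0.128 and 0.0525).

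Of 13 genes of the PERK arm and targets of its factor ATF4 with a kept feature 3 fell and none rose with misread stretches left out, beside 1.57% of all genes called lower, and none was called over all gene features, where 0.0186% of all genes were called lower. Eif2ak3, which encodes PERK itself, was read with the stress sensors and is not among these 13. It was 1.88-fold higher on 1 of its 2 kept features, called only with the stretches left out (limma adjusted p = 0.0216). The median difference over the 13 genes was -0.39, and -0.53, -0.50 and -0.48 under the 3 other normalizations of the kept features. Those 3 called 5, 4 and 4 of the genes lower, beside 826, 655 and 551 of 25467 kept gene features. Chac1, which degrades glutathione, read 13.52 and 13.32 in db/db pools, against 14.68 and 14.67 in db/+ pools, a 2.39-fold lower level (adjusted p = 0.0559 and 0.0174). Asns, asparagine synthetase, was 1.64-fold lower (0.0706 and 0.0283), and Cebpg, a partner of ATF4, was 1.74-fold lower on 1 of its 3 features (0.117 and 0.0468). Atf4 itself differed by 0.04, Nupr1 by 0.38, Ppp1r15b by 0.24 and Vldlr by 0.19, none of them called, and these 4 were the members of the list with a positive difference. The difference between this list and the unfolded protein response genes was not tested.

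**Figure D5:**
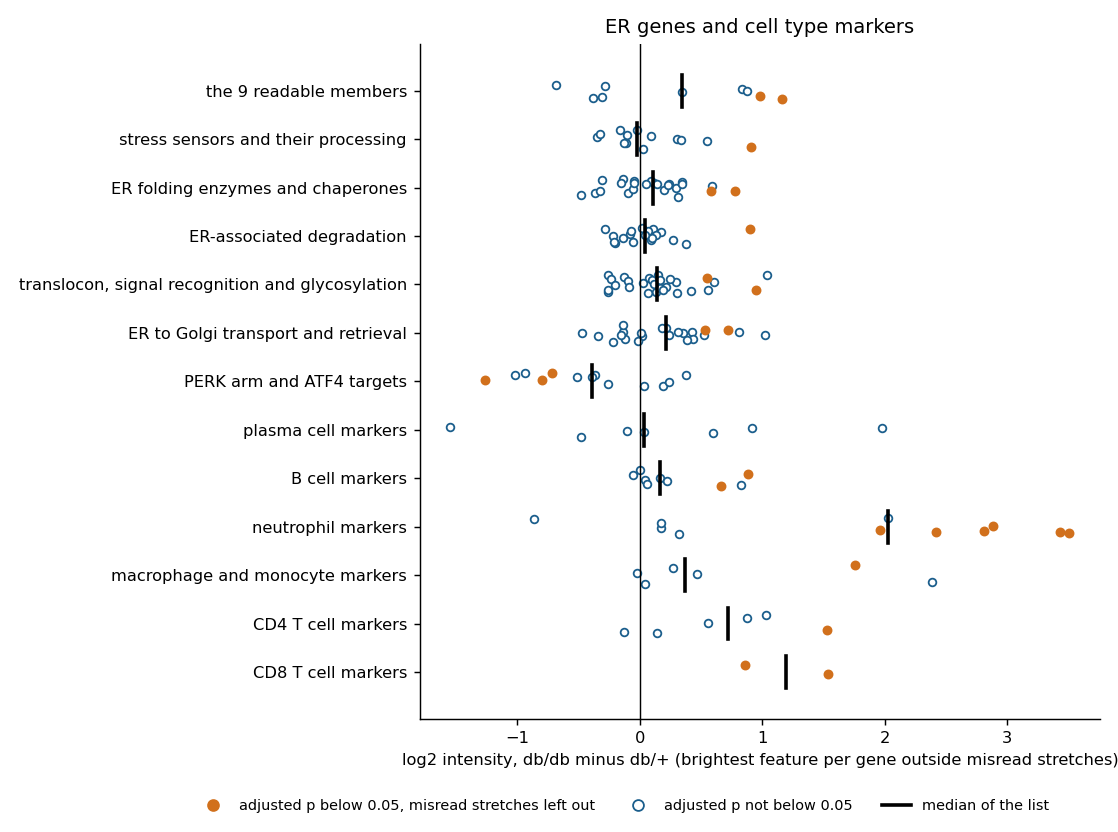
Difference in log2 intensity, db/db minus db/+ (x axis), of each gene on its brightest feature outside misread stretches, by list (rows), with the list median as a black bar and genes called with the stretches left out in orange. The 9 readable members have a median of 0.35, the list of PERK arm genes and ATF4 targets (without Eif2ak3) -0.39 and the neutrophil markers 2.02.

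Markers of other cells were read in the fit with misread stretches left out, where 9.07% of all genes were called, 7.49% higher. Quantile normalization of the kept features alone, median scaling and cyclic loess called 1101, 1267 and 1146 of 25467 kept gene features higher. They called 826, 655 and 551 lower. Xbp1 and its targets are abundant in plasma cells, so those markers were read first. None of 7 was called, although 1 was called higher and 1 lower under median scaling of the kept features. Their mean log2 level was 10.50 and 10.49 in db/db pools and 9.94 and 10.65 in db/+ pools. Sdc1, a marker on the list, read 7.97 and 8.01 in db/db pools and 8.07 and 8.13 in db/+ pools. These levels were near the median of 7.55 over gene features. Jchain, the joining chain of secreted antibody, read 14.63 and 14.71 in db/db pools, against 12.03 and 13.35 in db/+ pools (difference 1.97, adjusted p = 0.177 and 0.0733). Prdm1, a plasma cell transcription factor, differed by 0.60 and Tnfrsf17, a survival receptor, by -1.54 (adjusted p = 0.111 and 0.160 with the stretches left out). Jchain differed by 1.32 between the db/+ pools (pool 2 minus pool 1). Between the same db/+ pools, pool 2 minus pool 1 on the brightest kept feature, Xbp1 differed by 0.01, Edem1 by 0.36, Pdia4 by 0.79 and Sdf2l1 by 0.36. By this measure Atf6 differed by 0.30, Dnajb9 by 0.28, Hsp90b1 by 0.14, Ern1 by 0.09 and Herpud1 by -0.10. A link between plasma cell RNA and the members was not tested. Of 9 B cell markers 2 rose, Ebf1 and Cd79a, a count of 1, 0 and 1 under quantile normalization of the kept features alone, median scaling and cyclic loess, while Ms4a1 differed by 0.82 (adjusted p = 0.269 and 0.142), and the mean level was 9.25 and 9.01 in db/db pools and 8.68 and 8.95 in db/+ pools, with Pax5, Cr2 and Blk below the median of gene features in every pool.

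Of 11 neutrophil markers 6 rose (6, 7 and 6 under the same 3 normalizations, with 1 lower under median scaling), with a mean level of 10.36 and 10.44 in db/db pools and 8.33 and 9.03 in db/+ pools. Among them the granule proteins Ltf and Lcn2 differed by 3.43 and 2.81, and Ngp read 10.30 and 10.61 in db/db pools and 6.97 and 6.93 in db/+ pools (adjusted p = 0.0290, 0.0355 and 0.0290 over all gene features). Of 6 macrophage and monocyte markers 1 rose, Adgre1 (1, 2 and 1 under the same normalizations), with a mean level of 9.59 and 9.51 in db/db pools and 8.57 and 8.90 in db/+ pools. Lyz2, a lysozyme of myeloid cells, differed by 2.39 and C1qb, a complement gene, by 0.47 (adjusted p = 0.0530 and 0.0810 with the stretches left out). Of 2 erythroid genes with a kept feature, Hba-a1 and Alas2, none was called (differences 1.64 and 0.63, adjusted p = 0.107 and 0.542), although 1 was called higher under median scaling. The T cell genes Cd3d, Cd3e, Cd3g, Cd4 and Cd28 were above the median of gene features in every pool, and of the 6 on the list only Thy1 rose (1, 2 and 1 genes under the same normalizations; difference 1.53, adjusted p = 0.0627 and 0.0189), with Cd3d at 0.88 (0.135 and 0.0554) and Cd3e at 1.03 (0.196 and 0.0884). The mean level of the 6 was 12.92 and 13.01 in db/db pools and 12.09 and 12.50 in db/+ pools. Both CD8 genes rose as well (2, 1 and 2), with Cd8a higher on all 11 of its features (difference 1.53 on the brightest, adjusted p = 0.0751 and 0.0236). The mean level of the 2 CD8 genes was 13.69 and 13.68 in db/db pools and 12.30 and 12.68 in db/+ pools, although the cells were purified as CD4+CD25-. The part of these other cells in the differences of the members was not tested.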

How the data were processed

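RNA of 4 pools of T cells, 2 per genotype, was read on one-colour arrays. Per the file headers, the deposited raw table holds median foreground intensity on a linear scale. The authors' deposited value table holds log2 values and agreed to within 5e-09 with log2 of those intensities, quantile normalized and not background corrected. The submitters' processing notes name limma.

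The tables name no genes. Row numbers were tied to annotated features by an array layout inferred from these data: in it 2293 features of accessions with at least 8 features had a median absolute deviation of 0.138 within an accession, against 1.1 when row numbers were taken as feature numbers. All gene names, taken from the platform annotation, rest on it.

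Intensities were corrected by normexp (offset 50), log2 transformed and quantile normalized with limma 3.58.1 in R 4.3.3. Every gene feature was tested by limma's moderated test, two-sided, at a Benjamini-Hochberg adjusted threshold of 0.05. Scan lines of 266 spots in which, on any array, over 5% of spots departed by more than 2 log2 units from the other 3 arrays' median (40 of 170 lines) were taken as misread, as were windows of 15 spots holding 3 or more of them, and this left out 8242 gene features (24.5%). That rule was set after the data had been seen and is not independent of the genotype comparison. The first adjusted p of a feature is over all 33709 gene features and the second over the 25467 kept. With 2 arrays per group an exact permutation test cannot go below p = 0.333, so p-values rest on limma's pooled spread. The number of arrays limits precision.

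The members and lists were chosen with earlier results of these data known. All 10 members are named, and from each other list the up to 3 genes with the smallest unadjusted p. Further genes (Lepr, Eif2s3y, Xist, Atf4, Nupr1, Ppp1r15b, Vldlr, Sdc1, Pax5, Cr2, Blk, Cd3g, Cd4, Cd28) were named after their values were seen. The fitting steps were tested on simulated data. Alternatives covered background correction, normalization, dim features, misread stretches, single arrays and the replicate number.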

Additional observations from a re-analysis of the deposited data

How the results depend on the processing

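On 1 feature per gene (or the mean of its features), the direction of the difference held for all 10 member genes in all 180 recomputed values, of which 159 stayed on the same side of the threshold. Of the other member features, the second of Hsp90b1 turned from -0.16 to 0.15 without db/+ replicate 1. Xbp1 lost its call in 12 of 19 alternatives (differences 1.06 to 1.21, adjusted p 0.00173 to 0.242), while Atf6 gained one in 4 and Edem1 in 5. The number of gene features called, 336, became 149 under cyclic loess, 194 with dim features left out and 2089 with misread stretches left out. With alternatives chosen after seeing the data, it was 1927 with the stretches left out before normalization, 1922 with median scaling and 1697 with cyclic loess of the kept features. The number of member features called, 1, became 0 under median scaling, under cyclic loess and with dim features left out, and 4 with misread stretches left out. On the kept features it became 7 with the stretches left out before normalization, 6 under median scaling and 7 under cyclic loess. Leaving out any 1 array gave 0 calls in both counts, with or without the stretches, on fits where the lone array of a group is assumed to vary like the others. The median difference of the members, 0.35, ranged from 0.27 to 0.42 with 1 array left out and became 0.09 with the mean over features of a gene. Replicate numbers are not linked to the experiments in the labels, and deviations of same-numbered pools correlated at -0.0461 across features. With the replicate block the counts were 0 gene features and 0 member features, and 445 and 1 with misread stretches left out (Xbp1, adjusted p = 0.0483). The causes of these changes were not tested.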
